A study of Rattus norvegicus with 10 samples.

Results

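The cell cycle and proliferation genes were a list of 40 genes that drive, restrain or mark cell division. A gene was represented by the probe set with the highest mean signal over all 10 arrays among probe sets annotated with exactly 1 symbol, and for Ccnd1 every probe set was examined. On this rule 38 of the 40 genes had a probe set, of 14217 genes on the array. Rrm2 and Hmgb2 had no probe set annotated with exactly 1 symbol and were not analysed here. The tissue was the neurointermediate lobe of the pituitary gland, taken from Sprague Dawley males aged 10 to 12 weeks. There were 5 arrays from rats dehydrated for 3 days and 5 arrays from control rats, and each array carried RNA pooled from 5 animals. The design text of the series names the supraoptic nucleus, and the tissue was taken here from the sample labels and the title.

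A cell commits to division when D-type cyclins bind CDK4 or CDK6 and inactivate the retinoblastoma protein, which frees E2F factors to switch on the genes of DNA replication. CDK inhibitor proteins hold this step back, and a later wave of cyclin B, CDK1 and mitotic kinases takes the cell through mitosis. The lobe is mostly made of melanotrophs and pituicytes, cells that divide rarely or not at all, and of the endings of hypothalamic axons. Vessels, fibroblasts and macrophages lie among them. D cyclins, p27 and stathmin are also made by cells that are not dividing.

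Of the 38 genes, 32 were bright enough to be tested and 6 (Cdk6, Myc, Tyms, Plk1, Aurka and Bub1b) lay under the filter on dim probe sets. After 3 days of dehydration 2 of the 32 rose, Ccnd1 and Stmn1, and 0 fell, by limma with an adjusted p under 0.05. Over all 10593 tested genes 2.31% were called higher and 0.878% lower. At an unadjusted p under 0.05, 4 of the 32 were higher and 1 was lower, while 18.9% of all tested genes passed that level in either direction. The median log2 change of the 32 genes was 0.06, and 21 of them had a positive change. Over all tested genes the median was 0.01, with 51.6% positive. Arrays of this size were simulated with 50 of 18625 probe sets changed at each size of change, and 124 calls resulted. Of probe sets changed by 0.3 on the log2 scale 6% were recovered, with 44% at 0.5 and 90% at 1. These shares hold for that number of changed probe sets and can differ in the data. A missed call does not show that a gene was unchanged.

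Markers of several cell types also differed between the groups. RNA integrity was read from the 3' over 5' log2 ratio of the GAPDH and beta-actin control probe sets, which goes up as RNA shortens. It was 1.61 to 2.67 on dehydrated and 1.26 to 2.52 on control arrays (exact two-sided permutation p = 0.214). Of the melanotroph markers, 1 of 6 tested was lower and 0 were higher, with a summed signal of 4549 to 5291 on dehydrated and 5499.5 to 6274 on control arrays. Of 12 pituicyte and astroglial markers 3 were higher, and the summed signals were 7268 to 8239 and 6244.5 to 7226 in dehydrated and control lobes. Endothelial and mural markers had 4 of 14 higher, with sums of 1903 to 2293 on dehydrated and 1345 to 1770 on control arrays. Fibroblast and meningeal markers had 4 of 12 higher, with sums of 10429 to 12978 on dehydrated and 7612 to 8492 on control arrays. Myelin cell markers had 1 of 3 tested higher (sums 1312 to 1443 on dehydrated and 1050.1 to 1197 on control arrays), and 5 others lay under the filter. Macrophage markers had 1 of 10 higher, with overlapping sums of 1901 to 2745 and 2073 to 2617 on dehydrated and control arrays. The 6 anterior lobe hormone genes, which mark tissue carried over from the neighbouring lobe, summed to 4824 to 9379 and 2574 to 7950 on dehydrated and control arrays, and 1 of them was lower. No marker was at 0 on all arrays. Sums of linear signal weigh bright genes most, such as Mgp among fibroblast markers (means 5104 on dehydrated and 2544 on control arrays). Changes were positive for 8 of 12 fibroblast, 9 of 14 endothelial and mural, and 8 of 12 pituicyte markers (median log2 changes 0.18, 0.21 and 0.12). They were positive for 7 of 10 macrophage, 2 of 3 myelin cell and 0 of 6 melanotroph markers (medians 0.17, 0.25 and -0.20). Of the 6 anterior lobe hormone genes 5 had a positive change and 1 a negative one (median 0.29). The part of these marker changes in the results on cell cycle genes was not tested. In such pooled tissue, a change in the number of cells of a type and a change in RNA per cell cannot be told apart.

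Promoters are shown first because many of the listed genes are controlled together through short motifs near their start. RefSeq windows of assembly GRCr8 were found for 30 of the 40 genes, and the 250 bases before the start were searched on both strands. No window was found for Ccnd1, Ccnd2, Cdk6, Ccna2, Myc, Mcm4, Rrm2, Aurkb, Ube2c or Racgap1, so the motif counts leave these genes out. An E2F-type motif was searched as TTCGCGC or as its variants, spelled TTGGCGC in one case and, in another, TTCCCGC. The CHR element of mitotic genes was searched as TTTGAA. The CCAAT box was searched by the letters in its name. The sequences below belong to Stmn1 and Cdca7, both called higher, to the uncalled mitotic genes Cdk1 and Mki67, and to the uncalled replication gene Mcm5. They run 5' to 3' on the strand of the gene, with every motif match in capitals.
Stmn1, chr5:151964929-151965178, + strand: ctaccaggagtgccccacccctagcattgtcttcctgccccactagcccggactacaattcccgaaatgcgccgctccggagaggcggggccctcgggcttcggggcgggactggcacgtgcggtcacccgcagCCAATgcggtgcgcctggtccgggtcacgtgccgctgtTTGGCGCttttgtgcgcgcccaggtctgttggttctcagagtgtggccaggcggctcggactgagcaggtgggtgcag
Cdca7, chr3:77730065-77730314, + strand: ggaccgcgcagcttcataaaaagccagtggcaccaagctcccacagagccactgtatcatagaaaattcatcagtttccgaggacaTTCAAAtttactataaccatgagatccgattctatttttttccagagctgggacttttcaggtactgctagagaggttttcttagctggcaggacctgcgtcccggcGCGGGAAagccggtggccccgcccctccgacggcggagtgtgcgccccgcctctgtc
Cdk1, chr20:19265043-19265292, + strand: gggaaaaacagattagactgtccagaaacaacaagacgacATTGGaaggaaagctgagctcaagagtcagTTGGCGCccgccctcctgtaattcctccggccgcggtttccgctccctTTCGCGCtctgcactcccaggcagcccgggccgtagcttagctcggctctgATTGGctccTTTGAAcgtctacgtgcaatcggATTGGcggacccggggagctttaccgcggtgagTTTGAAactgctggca
Mki67, chr1:199952594-199952843, - strand: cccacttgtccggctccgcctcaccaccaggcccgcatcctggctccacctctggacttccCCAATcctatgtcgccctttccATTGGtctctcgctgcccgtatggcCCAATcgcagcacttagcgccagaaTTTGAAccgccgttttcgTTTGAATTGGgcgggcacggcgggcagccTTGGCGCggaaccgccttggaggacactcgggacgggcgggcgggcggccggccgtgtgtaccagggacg
Mcm5, chr19:13488563-13488812, + strand: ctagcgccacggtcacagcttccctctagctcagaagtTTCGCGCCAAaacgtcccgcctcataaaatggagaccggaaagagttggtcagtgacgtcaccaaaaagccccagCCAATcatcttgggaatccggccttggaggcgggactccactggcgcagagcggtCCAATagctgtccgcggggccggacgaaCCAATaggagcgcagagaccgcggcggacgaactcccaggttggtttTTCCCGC
Stmn1 had 1 E2F-type motif and 1 CCAAT box, and Cdca7 had 1 E2F-type motif and 1 CHR. Cdk1 had 2 E2F-type motifs, 2 CHR elements and 3 CCAAT boxes, and Mki67 had 1, 2 and 4 of them. Mcm5 had 3 E2F-type motifs and 3 CCAAT boxes. Motifs can share letters: the run of capitals that starts the Mcm5 motifs holds a pair of overlapping E2F-type matches, and in Mki67 a CHR runs into a CCAAT box.

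An E2F-type motif stood in 10 of the 30 promoters (33.3%), against 6.04% of all 33469 RefSeq promoters. They included 4 of 6 replication genes and 2 of 11 mitotic genes. A CHR stood in 9 of 30 (30%), against 16.2% of all promoters, and in 5 of 11 mitotic genes. A CCAAT box stood in 21 of 30 (70%), against 34.0% of all promoters, and in 9 of 11 mitotic genes. In 1 of the 30, Mcm7, an E2F-type match overlapped a CCAAT box. These matches are letters in a window and were not tested as binding sites.

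Among the D-type cyclins, which couple outside signals to the start of the cycle, Ccnd1 (Entrez Gene 58919) rose on the probe set used. Its signals were 325.7, 320.3, 334.8, 280.5 and 271.1 on dehydrated arrays, against 199.1, 256.5, 256, 185.3 and 210.5 on control arrays. Every dehydrated array lay above every control array. Among all tested genes 3.90% were separated in this way upward and 1.83% downward. The means were 306 ± 28.7 in dehydrated and 221 ± 33.0 in control lobes (SD, n = 5 each), a 1.38-fold difference (log2 change 0.47 ± 0.10 SE, limma adjusted p = 0.0204). Leaving out dehydrated array 1 or 3, or control array 4 or 5, raised the adjusted p to between 0.0521 and 0.0768 and ended the call, as did a variance model with no intensity trend (adjusted p = 0.0702).

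The other Ccnd1 probe sets did not share this difference. Probe set 1383075_at read 133.4, 175.2, 185.5, 170 and 169.6 on dehydrated arrays, against 138.4, 169, 131.9, 158.5 and 199.2 on control arrays (log2 change 0.07 ± 0.12 SE, limma adjusted p = 0.810). Probe set 1371150_at read 42.2, 57.1, 63.8, 50.8 and 57.1 on dehydrated arrays, against 44.5, 59.7, 56.7, 45.4 and 50.3 on control arrays (log2 change 0.07 ± 0.14 SE, limma adjusted p = 0.846). The groups overlapped on both. The difference between probe sets was tested within arrays, over the 7 pairs of tested probe sets that belong to 1 listed gene. This test was chosen after seeing the data. The log2 ratio of 1371643_at, the probe set used, to 1371150_at was 2.40 ± 0.24 on dehydrated and 2.00 ± 0.07 on control arrays (SD, n = 5 each, exact permutation p = 0.00794, the smallest this design allows, adjusted p = 0.0278). Against 1383075_at the ratio was 0.86 ± 0.24 and 0.46 ± 0.33 on dehydrated and control arrays (SD, n = 5, exact permutation p = 0.0714, adjusted p = 0.167). With the 3 probe sets averaged the change of Ccnd1 was 0.20 (limma adjusted p = 0.287), so the call rests on the brightest probe set alone.

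**Figure D1:**
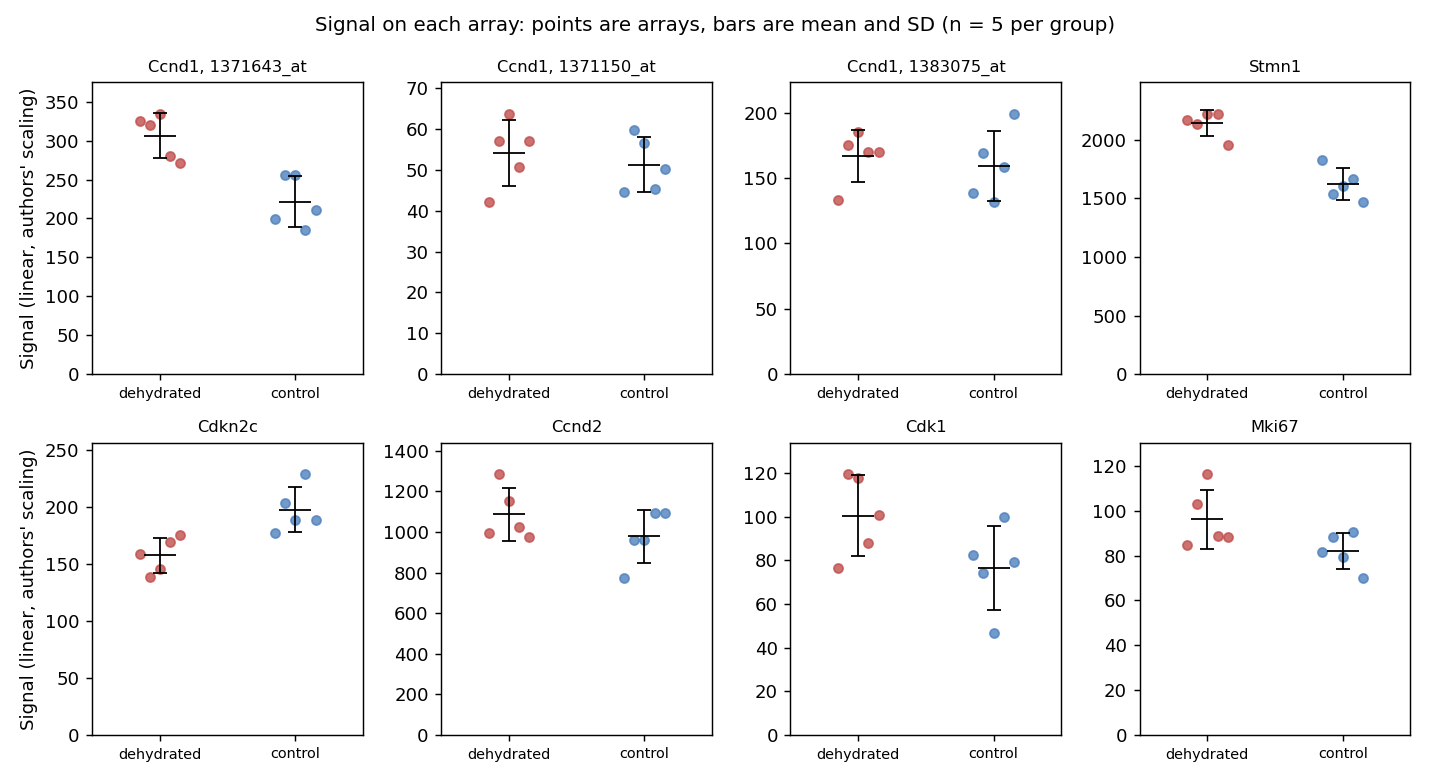
Signal on a linear scale (vertical axis, from 0) for the 3 Ccnd1 probe sets and for Stmn1, Cdkn2c, Ccnd2, Cdk1 and Mki67, with dehydrated arrays left and control arrays right; points are arrays, and bars are the mean and SD of 5. The groups separate for Ccnd1 on 1371643_at, for Stmn1 upward and for Cdkn2c downward, and overlap in the other panels.

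Ccnd2, a D cyclin used by many neural and endocrine cells, had signals of 997.2, 1283.9, 1154.3, 1023.8 and 974.8 on dehydrated arrays, against 775.5, 962.3, 961.9, 1095.1 and 1094.5 on control arrays. The groups overlapped (log2 change 0.15 ± 0.10 SE, limma adjusted p = 0.449). Ccnd3, the third D cyclin, read 210.4, 224.9, 249.7, 198.6 and 245.8 on dehydrated arrays, against 239.1, 229.5, 247, 203.3 and 233.3 on control arrays. Its log2 change was -0.03 ± 0.09 SE (limma adjusted p = 0.895). Cdk4, the kinase that D cyclins activate, changed by -0.01 ± 0.09 SE (adjusted p = 0.975). Its alternative partner Cdk6 read 1.7 to 17.8 on dehydrated and 1.5 to 8.4 on control arrays and was not tested.

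The CDK inhibitors were 0 higher and 0 lower of 3 tested. Cdkn2c encodes p18-INK4c, which blocks CDK4 and CDK6 and restrains growth of the intermediate lobe in mice. Its signals were 158.4, 138.8, 145.5, 169.3 and 175 on dehydrated arrays, against 177.1, 203.6, 188.9, 228.6 and 188.9 on control arrays. All dehydrated arrays lay below all control arrays, with means of 157 ± 15.3 and 197 ± 19.8 in dehydrated and control lobes (SD, n = 5 each), but the log2 change of -0.32 ± 0.09 SE did not pass (limma adjusted p = 0.0852). It passed without dehydrated 5 (limma adjusted p = 0.0402), but with the probe sets of a gene averaged the Cdkn2c change was -0.04 (adjusted p = 0.934). A dimmer Cdkn2c probe set changed by 0.25 (adjusted p = 0.662), and the difference between groups in the ratio of the pair, -0.56 on the log2 scale, did not pass (exact permutation p = 0.103, adjusted p = 0.181).

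Cdkn1b encodes p27-Kip1, which keeps resting cells out of the cycle and whose loss in mice leads to tumours of the intermediate lobe. It read 640, 520.5, 706.3, 634.2 and 584.5 on dehydrated arrays, against 564.8, 683.4, 583.8, 636.3 and 560 on control arrays. The groups overlapped throughout, with a log2 change of 0.02 ± 0.09 SE (limma adjusted p = 0.922). Cdkn1a encodes p21, the inhibitor induced by p53 and by stress. It was dim, with 29.4, 28.4, 22.6, 22.3 and 28.1 on dehydrated arrays, against 37.9, 27.8, 10.4, 24.9 and 17.7 on control arrays. Its control arrays spread more widely than its dehydrated arrays (log2 change 0.19 ± 0.23 SE, adjusted p = 0.723).

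Of the cyclins and kinase of S phase entry, 0 of 3 tested were called. Ccne1, the cyclin that starts S phase with CDK2, changed by 0.29 ± 0.18 SE on the log2 scale (limma adjusted p = 0.433), Ccna2, the cyclin of S and G2 phase, by -0.01, and Cdk2 by -0.19. Myc, a transcription factor that promotes growth and division, lay under the filter. It read 18.7, 16.5, 20.8, 9.9 and 21.7 on dehydrated arrays, against 9.3, 17.4, 14.9, 19.9 and 11.2 on control arrays. The groups overlapped, and with no filter its adjusted p was 0.778.

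The DNA replication genes had changes close to 0, with 0 of 7 called and log2 changes between -0.08 and 0.15. Pcna, the sliding clamp of DNA polymerase that also serves DNA repair, read 805, 802.9, 862, 994.4 and 916 on dehydrated arrays, against 926.8, 815.9, 782.9, 913.5 and 795.3 on control arrays. The groups overlapped, with means of 876 ± 80.9 in dehydrated and 847 ± 68.1 in control lobes (SD, n = 5 each; log2 change 0.05 ± 0.08 SE, limma adjusted p = 0.806). The 6 Mcm genes encode the helicase that opens DNA at origins. Mcm2 was lowest at -0.08 and Mcm5, whose promoter is printed above, highest at 0.15. The median of the 7 genes was 0.02.

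Of the genes that make DNA precursors, Rrm1, the large subunit of ribonucleotide reductase, changed by -0.00 ± 0.11 SE on the log2 scale (limma adjusted p = 0.994). Tk1, the thymidine kinase of dividing cells, changed by 0.01 ± 0.13 SE (adjusted p = 0.978). Tyms, the thymidylate synthase, was dim, at 1 to 15.9 on dehydrated and 13.2 to 26 on control arrays, and was not tested.

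Among the 14 genes grouped under mitosis 11 were tested, and 1 of them, Stmn1, was called. Stmn1 (Entrez Gene 29332) encodes stathmin, a tubulin-binding protein that takes microtubules apart and is also plentiful in neurons and endocrine cells. Its signals were 2171.2, 2135.1, 2222.9, 2216.5 and 1955.6 on dehydrated arrays, against 1825.3, 1534.4, 1606.4, 1668.6 and 1467.6 on control arrays. The groups did not overlap. Means were 2140.3 ± 109 in dehydrated and 1620.5 ± 137 in control lobes (SD, n = 5 each), a 1.32-fold difference (log2 change 0.40 ± 0.07 SE, limma adjusted p = 0.00504). The call held in all 22 alternatives, with changes of 0.30 to 0.48 and adjusted p of 0.00109 to 0.0422.

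**Figure D2:**
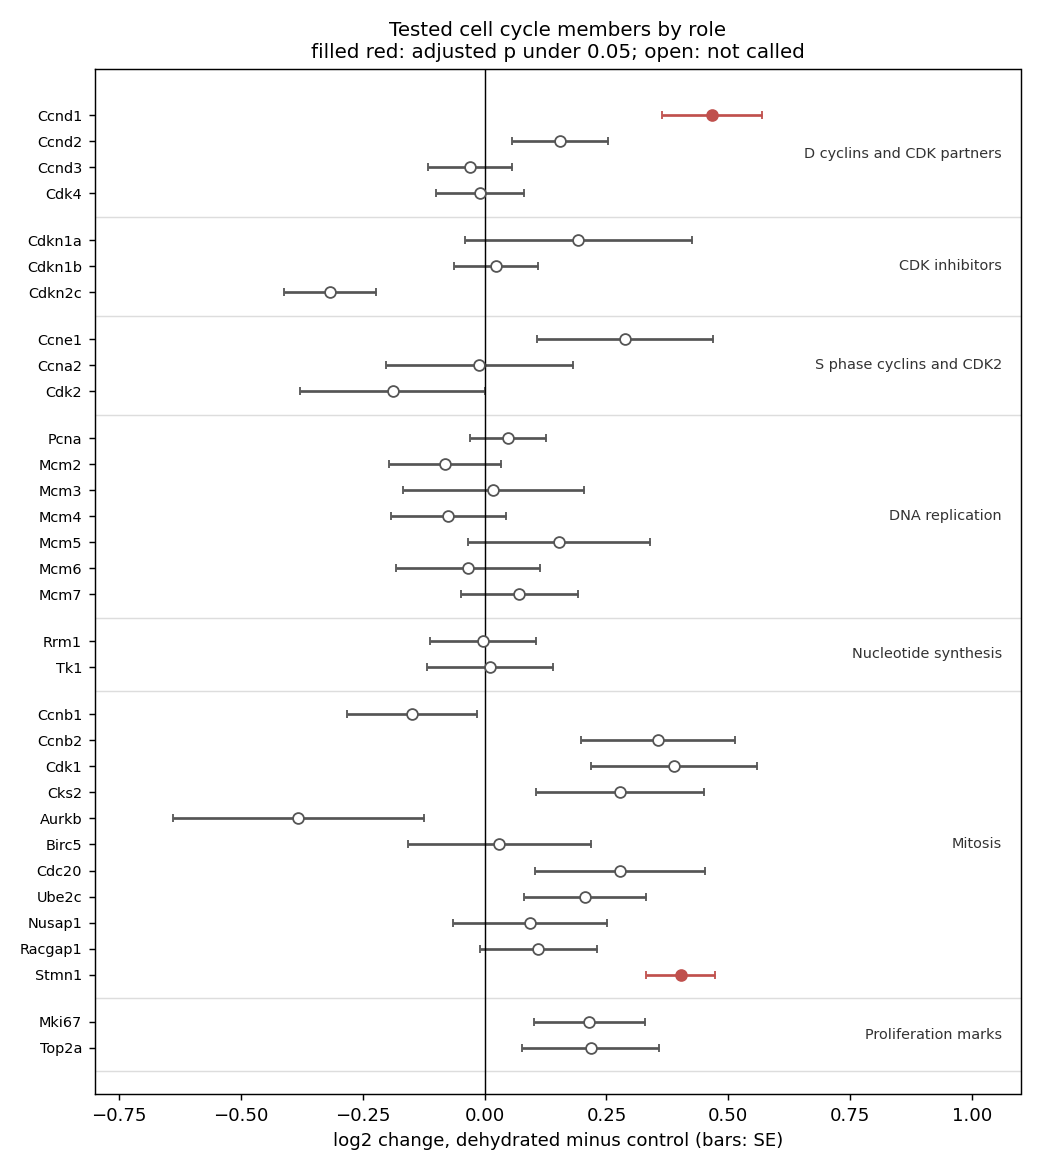
Log2 change of the 32 tested genes, dehydrated minus control (horizontal axis), with the SE as a bar, grouped by role down the page. Ccnd1 at 0.47 and Stmn1 at 0.40 are the filled points that passed, and the replication and nucleotide genes lie around 0.

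Cdk1, the kinase that drives entry into mitosis, read 76.4, 119.4, 117.6, 87.9 and 100.8 on dehydrated arrays, against 82.6, 74.4, 46.8, 99.9 and 79 on control arrays. The dehydrated mean of 100.4 ± 18.6 and the control mean of 76.5 ± 19.2 (SD, n = 5 each) differed by 0.39 ± 0.17 SE on the log2 scale, which did not pass (limma adjusted p = 0.251). Ccnb2, a B-type cyclin that binds CDK1, read 44.9, 59.7, 84.7, 83.4 and 77.8 on dehydrated arrays, against 45.9, 49.4, 52.9, 58.5 and 55.7 on control arrays. It exceeded all control arrays on 4 of 5 dehydrated arrays, with dehydrated 1 below them (log2 change 0.36 ± 0.16 SE, adjusted p = 0.261).

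Ccnb1, the main mitotic cyclin, gave opposite directions on its pair of probe sets, neither of which passed. The one used, 1370346_at, read 36.3, 46.6, 40.6, 42.9 and 47.8 on dehydrated arrays, against 54.2, 39.4, 51.8, 45 and 50.2 on control arrays (log2 change -0.15 ± 0.13 SE, limma adjusted p = 0.608). The dimmer 1370345_at read 26.4, 33.1, 27.1, 23.5 and 29.4 on dehydrated arrays, against 20.5, 13, 22.5, 19.2 and 17.1 on control arrays (log2 change 0.50, adjusted p = 0.147). The groups overlapped on the first and were separate on the second. Within arrays their log2 ratio was 0.54 ± 0.14 on dehydrated and 1.19 ± 0.13 on control arrays (SD, n = 5 each, exact permutation p = 0.00794, the smallest this design allows, adjusted p = 0.0278). This ratio test was chosen after seeing the data. Because the probe sets of the pair gave opposite directions, no direction can be given for Ccnb1.

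The standard error was largest, among the 32 genes, for Aurkb, the kinase of the chromosomal passenger complex. It read 84.3, 165.7, 85.3, 84.3 and 80.7 on dehydrated arrays, against 212.2, 107.2, 150, 154 and 61 on control arrays. Its log2 change was -0.38 ± 0.26 SE (limma adjusted p = 0.472), and it passed once the RNA integrity ratio was a covariate (log2 change -0.77, adjusted p = 0.0306). The other tested genes of this group, the anaphase activator Cdc20, the ubiquitin carrier Ube2c, the CDK1 subunit Cks2, the survivin gene Birc5, the spindle protein gene Nusap1 and the cytokinesis regulator Racgap1, had changes between 0.03 and 0.28, none of which passed. Over the 11 tested genes of the group, Stmn1 among them, 9 changes were positive, and the median was 0.21. Of all tested genes 51.6% had a positive change, with a median of 0.01. The count takes Ccnb1 as negative, from the probe set used. The mean deviation of the 11 genes from their control mean was 0.12, 0.28, 0.15, -0.00 and 0.19 on the dehydrated arrays, and it ran between -0.13 and 0.13 on the control arrays.

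The proliferation marks followed a similar range. Mki67, which encodes the Ki-67 protein of dividing cells, read 84.5, 102.8, 116.2, 88.8 and 88.4 on dehydrated arrays, against 81.5, 88.1, 79.4, 90.4 and 70 on control arrays (log2 change 0.21 ± 0.11 SE, limma adjusted p = 0.347). Top2a, the topoisomerase that untangles chromosomes before division, read 53.1, 65.2, 66.9, 53 and 66 on dehydrated arrays, against 61, 42.5, 60.6, 55 and 41 on control arrays (log2 change 0.22 ± 0.14 SE, adjusted p = 0.452). The groups overlapped for each gene. Of the dim mitotic genes, the kinase gene Plk1 read 7.5 to 21.3 on dehydrated and 4.2 to 27.7 on control arrays. The spindle kinase gene Aurka read 13.9 to 36.5 on dehydrated and 15.6 to 24.1 on control arrays, and the checkpoint gene Bub1b 3.6 to 26.3 and 4.5 to 19.3 on dehydrated and control arrays. With no filter on dim probe sets, the 6 untested genes had adjusted p of 0.491 to 0.981.

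**Figure D3:**
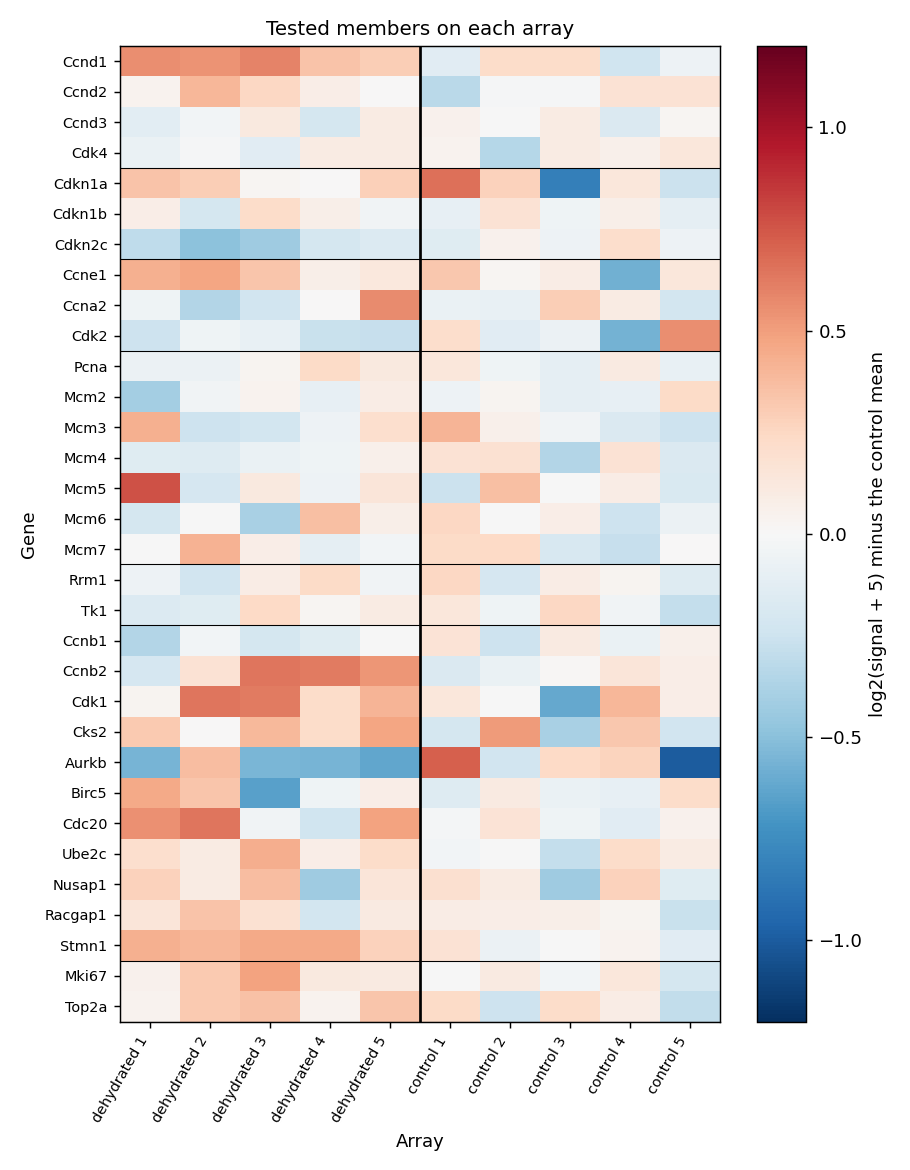
Each row is a tested gene and each column an array, with the 5 dehydrated arrays left of the black line; colour is log2(signal + 5) minus the mean of the 5 control arrays. Ccnd1 and Stmn1 are red on every dehydrated array, Cdkn2c is blue on each of them, and most other rows mix colours within both groups. Some uncalled genes, among them Mki67 and Ube2c, also lie above the control mean on every dehydrated array.

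Other genes of the cycle were taken from lists of 147 genes, of which 128 had a probe set and 103 were tested. Of these, 2 rose and 0 fell by limma, beside 10 higher and 9 lower at an unadjusted p under 0.05, and the median log2 change was -0.00. Over all 10593 tested genes 2.31% were called higher and 0.878% lower, and 18.9% passed the unadjusted level in either direction. The counts for the other cell cycle genes were thus near the shares of all tested genes. Mycn (Entrez Gene 298894), a relative of Myc active in developing neural and endocrine tissue, rose to 98.8, 77.1, 92.1, 92.7 and 106.8 on dehydrated arrays, against 56.8, 63.4, 60.6, 46.1 and 35.6 on control arrays. The groups did not overlap (log2 change 0.79 ± 0.15 SE, 1.73-fold, adjusted p = 0.00721). Cdca7 (Entrez Gene 311742), a target of MYC and E2F that works with the chromatin remodeller HELLS, rose to 100.7, 109, 104.1, 84.6 and 79.6 on dehydrated arrays, against 57.5, 65.5, 64, 66.4 and 57.8 on control arrays. Here too every dehydrated array was above every control array (log2 change 0.57 ± 0.11 SE, 1.49-fold, adjusted p = 0.0119). Both calls held in all 22 alternatives.

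By list, 1 of 27 tested genes of G1 and S phase control was called (Mycn), 0 of 31 replication genes and 1 of 45 genes listed under mitosis (Cdca7). Cdca7 is listed there although the role given above is in chromatin. Median changes were -0.10 for G1 and S phase control, with 21 of 27 genes negative, 0.01 for replication, and 0.10 for mitosis, with 29 of 45 genes positive. The replication genes ranged between -0.37 and 0.36. For comparison, 51.6% of all tested genes had a positive change.

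**Figure D4:**
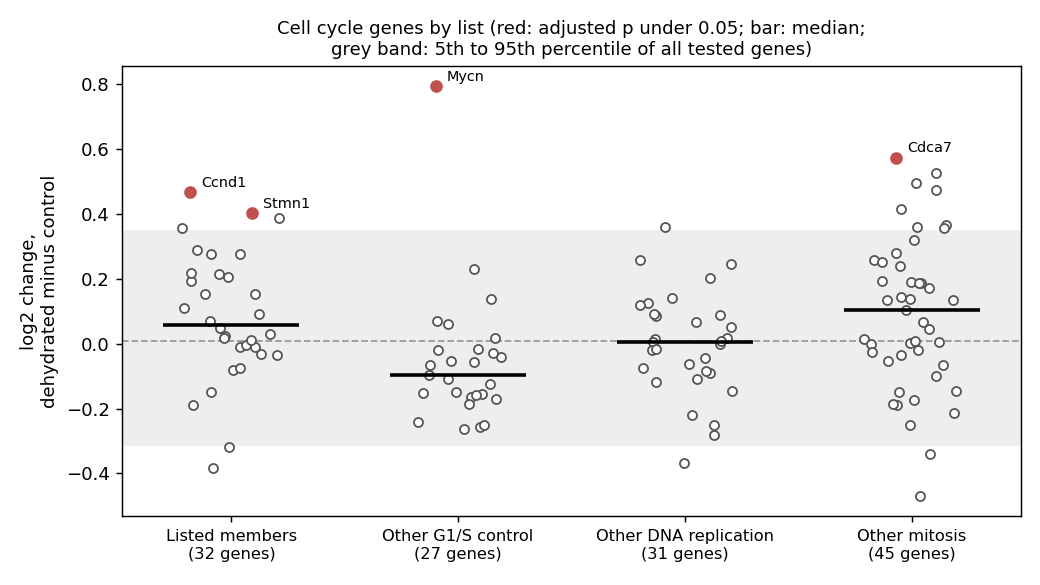
Log2 change, dehydrated minus control (vertical axis), of each tested gene in the listed set and in the 3 lists of other cell cycle genes; bars are medians, and the grey band spans the 5th to 95th percentile of all tested genes, -0.31 to 0.35. The 4 filled points, Ccnd1, Stmn1, Mycn and Cdca7, passed. The medians are 0.06 for listed members, -0.10 for other G1 and S phase control, 0.01 for other replication and 0.10 for other mitosis.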

How the data were processed

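Affymetrix Rat Genome 230 arrays of version 2.0 were used. The deposited values are linear intensities, 1 for each probe set on each array. GCOS 1.2 is named in the submitters' processing notes, and its settings are not given in the sources used here. From the values, the authors had scaled every array to 1 trimmed mean (2% off each end), and no scaling was added. Detection calls were not used here, so signal over background is unknown.

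Of 31099 probe sets, 57 controls were left out and 20826 of the rest had 1 symbol. Values were taken as log2(signal + 5), which understates changes of dim genes. The brightest 60% by mean over all arrays, 18625, were tested with limma 3.58.1 in R 4.3.3 (intensity trend, two-sided, Benjamini-Hochberg), and 458 were called at an adjusted p under 0.05. Ratios of probe sets of 1 gene, a test chosen after seeing the data, used exact permutation over 252 splits in Python 3.11.15 with scipy 1.17.1. Steps were tested on simulated data over 18625 probe sets, where 4 of 124 calls fell on unchanged ones.

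Members and lists were chosen with earlier results of these data known. Full values were given for called members, Ccnd1, 11 genes fixed by name, the 4 uncalled members of smallest p, and up to 6 called other genes in each direction; Aurkb was added for its spread. Each array is a separate pool, so p-values refer to the spread between pools. Alternatives covered pseudocounts of 1 and 20, the filter, scaling, variance model, a 3' to 5' covariate, probe set averaging and left-out arrays.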

Additional observations from a re-analysis of the deposited data

Results flagged for a closer look

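On 4 of 72 groups of 5 arrays examined, 1 array stood far from the other 4 by Dixon's criterion, where chance gives about 1 in 20. Aurkb read 165.7 in dehydrated 2, against 80.7 to 85.3 on the other dehydrated arrays. The Ccnd1 probe set 1383075_at read 133.4 in dehydrated 1, against 169.6 to 185.5 on the others of its group. Cdk4 read 421.7 in control 2, against 551.2 to 588.4 on the other control arrays. Racgap1 read 66.4 in control 5, against 83.1 to 86.1 on the other control arrays. None of these probe sets was called in the comparison of dehydrated with control lobes.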

How the results depend on the processing

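No paired analysis was possible because the labels pair no dehydrated array with a control array. The array numbers used here follow the order of the samples. The count of listed genes called higher was 2, and it was 1 without an intensity trend and with the probe sets of a gene averaged, where Stmn1 passed and Ccnd1 did not. Leaving out 1 array gave 1 to 2. The count called lower was 0, and it was 1 with the RNA integrity ratio (3' over 5') as covariate (Aurkb) and without dehydrated 5 and control 1 together (Cdkn2c), with 0 to 1 when 1 array was left out. Of the 3 Ccnd1 probe sets 1 was called, and 0 without an intensity trend and, in the lowest case, when 1 array was left out (0 to 1). Other cell cycle genes called lower numbered 0, but 1 with the covariate (Cdkn1c) and 2 without dehydrated 5 and control 1 together (Cdc25b and Rpa1), and 0 to 1 with 1 array left out. Those called higher numbered 2, and 3 with quantile, median or cyclic loess scaling, the robust variance model or averaged probe sets (Cdkn3 added in each), without an intensity trend (Cenpk), with no filter (Mcm10) and without dehydrated 5 and control 1 together (Spc24). With 1 array left out they numbered 2 to 3, adding Cdkn3 without dehydrated 1 and Spc24 without dehydrated 5. Over all probe sets 458 were called, 240 without an intensity trend, 1398 without dehydrated 5 and control 1 together, and 218 to 1156 when 1 array was left out. Dropping dehydrated array 5 gave 1156, dropping 3 gave 218 and dropping 1 gave 301; dropping control array 2, 3, 4 or 5 gave 290, 288, 299 or 304. The causes were not tested. The number of arrays limits the precision, and signal over background is unknown.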

Other observations

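Several cell cycle genes outside the listed set came close to the threshold and were picked after their values were seen. Cdkn3, a phosphatase that acts on CDKs, had means of 69.8 ± 10.8 in dehydrated and 46.7 ± 5.45 in control lobes (SD, n = 5 each; log2 change 0.53 ± 0.14 SE, limma adjusted p = 0.0516). It passed in 6 of the 21 alternatives that measured it (limma adjusted p = 0.0214 to 0.141 over the 21), among them the 3 other scalings of the arrays. Cenpk, a kinetochore gene, averaged 47.7 ± 3.77 in dehydrated and 34.6 ± 3.32 in control lobes (log2 change 0.41, adjusted p = 0.102), with groups that did not overlap, and passed in 1 of 21 alternatives, without an intensity trend (limma adjusted p = 0.0439; 0.0439 to 0.190 over the 21). Kif20a, a kinesin of cytokinesis, averaged 66.7 ± 4.89 and 51.0 ± 4.78 in dehydrated and control lobes (log2 change 0.36, adjusted p = 0.111), also without overlap. It passed in 0 of 21 alternatives (limma adjusted p = 0.0717 to 0.248). Of the 103 tested other genes 4 were separate upward and 1 downward, against 3.90% and 1.83% of all tested genes. Lower genes with similar values included Cdkn1c (log2 change -0.26, limma adjusted p = 0.128) and E2f6 (-0.24, adjusted p = 0.133). Mcm10, a replication initiation factor, lay under the filter on dim probe sets. It read 23.6, 33.8, 16.2, 27.6 and 21.6 on dehydrated arrays, against 16.1, 5.1, 7.4, 5.2 and 5.2 on control arrays. With no filter its log2 change was 1.24 ± 0.26 SE (limma adjusted p = 0.0332), and whether so dim a probe set reads its transcript was not tested.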
